A study of Mus musculus with 4 samples.

Results

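The junction genes of the blood-testis barrier described here are Cldn3, Cldn5, Cldn11, Ocln, Tjp1, Cdh1, Cdh2, Ctnnb1 and Gja1, 9 genes taken by name. Every probe set that the platform annotation gives to 1 of these genes alone was used, which made 13 probe sets of the 12488 on the array. All 9 genes had at least 1 probe set, and 8 probe sets, 1 for each gene except Ocln, were bright enough to be tested (a mean scaled signal above 22.7). The other 5 probe sets, among them the only one of Ocln, lay below that level and are given as values. A scaled signal is the deposited signal times a factor that gives all 4 arrays the same trimmed mean. A log2 difference is that of the mean log2(scaled signal + 10) in T+T minus that in T+O, and a gene passed where its limma p, adjusted over all tested probe sets, was at most 0.05.

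The tissue was testis of hypogonadal (hpg) mice, which lack gonadotropin-releasing hormone and so make little testosterone of their own. All animals carried this defect, all were pretreated with testosterone propionate, a testosterone ester used for injection, and all then had it withdrawn, so no array shows an untreated or a normal testis. The T+T group, by its titles, holds 3 arrays: replicate 1 received the ester a second time for 4 hours, while the descriptions of replicates 2 and 3 stop at the withdrawal, so that the place of those 2 arrays in the group rests on the title. The T+O group holds 1 array, described as withdrawn. The first treatment lasted 2 weeks for T+T replicates 2 and 3 and T+O, and is not stated for T+T replicate 1. The labels give no age and do not say how many animals stand behind an array, so the spread between T+T arrays may be technical. Of 15 spermatocyte and spermatid markers 14 were bright enough to be tested, with summed signals of 32148 to 40576 on the T+T arrays against 31907 on the T+O array, so the labelled tissue is seen on all 4. In whole testis, fewer cells of a type and less RNA per cell cannot be told apart.

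The blood-testis barrier is formed by neighbouring Sertoli cells near the base of the seminiferous tubule, and it closes off the compartment in which meiosis and sperm formation proceed. Claudins and occludin form its tight junction strands, the scaffold protein ZO-1 (Tjp1) ties the strands to actin, cadherins bound to beta-catenin (Ctnnb1) hold the cells together, and the connexin Gja1 couples them through gap junctions. Androgen acting on Sertoli cells is known to be needed for a tight barrier, and claudin 3 is among the components described as androgen-dependent in mice.

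None of the 8 tested genes passed the adjusted threshold between T+T and T+O, where 0.0268% of the 7453 tested probe sets did, and none had an unadjusted p under 0.05, where 7.80% did. The differences nonetheless did not all point one way. Cdh2, Tjp1, Gja1 and Cldn3 were lower than T+O on each of the 3 T+T arrays, as were 23.7% of all tested probe sets. Gja1 and Cldn3 were only slightly lower. Cdh1 was higher on each T+T array, as were 29.5% of all tested probe sets. Cldn5, Cldn11 and Ctnnb1 lay on both sides of T+O. Over the 8 genes the median log2 difference was -0.02, against 0.03 over all tested probe sets, with 4 genes above 0 and 4 below. The intervals of the single genes were wide, so these arrays do not show that a gene stayed the same.

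The promoter windows of 3 of the genes are shown because claudin 3 and claudin 11 are the strand proteins of the Sertoli cell junction and Tjp1 had one of the 2 lowest differences. Each window runs 5′ to 3′ from 250 bases before to 50 after the transcript start, on build GRCm38.p6, and is credited to RefSeq. The windows are chr5:134985964-134986263 on the plus strand for Cldn3, chr3:31149670-31149969 on the plus strand for Cldn11 and chr7:65371195-65371494 on the minus strand for Tjp1. Capitals mark matches on either strand to 3 motifs: the androgen receptor half-site AGAACA, which reads TGTTCT on the other strand, the GC box GGGCGG, which reads CCGCCC, and the CCAAT box, which reads ATTGG on the other strand. No match overlapped a match to another motif in these 3 windows.
Cldn3: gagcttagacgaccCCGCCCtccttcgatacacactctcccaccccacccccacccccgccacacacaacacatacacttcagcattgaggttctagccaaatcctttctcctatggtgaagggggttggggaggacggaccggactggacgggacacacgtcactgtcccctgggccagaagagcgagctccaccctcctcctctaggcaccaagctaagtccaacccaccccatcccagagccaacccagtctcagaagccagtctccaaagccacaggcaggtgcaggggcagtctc
Cldn11: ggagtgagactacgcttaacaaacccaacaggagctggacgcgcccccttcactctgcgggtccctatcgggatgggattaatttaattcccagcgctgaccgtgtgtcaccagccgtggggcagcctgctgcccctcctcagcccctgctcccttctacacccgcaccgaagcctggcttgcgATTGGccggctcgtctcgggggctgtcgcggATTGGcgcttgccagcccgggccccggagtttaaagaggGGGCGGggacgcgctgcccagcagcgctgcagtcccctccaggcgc
Tjp1: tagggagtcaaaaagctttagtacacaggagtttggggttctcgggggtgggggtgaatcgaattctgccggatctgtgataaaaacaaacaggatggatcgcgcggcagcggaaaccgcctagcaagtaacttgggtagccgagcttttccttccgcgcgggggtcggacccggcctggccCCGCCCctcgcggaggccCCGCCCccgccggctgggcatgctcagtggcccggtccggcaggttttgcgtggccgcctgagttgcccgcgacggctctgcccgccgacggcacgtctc

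Cldn3 had 1 GC box, Cldn11 had 1 GC box and 2 CCAAT boxes, and Tjp1 had 2 GC boxes. Of all 32851 promoter windows of this length in the RefSeq table, 35.7% held a GC box and 37.4% a CCAAT box. The half-site AGAACA was not found in these 3 windows or in the windows read for Cldn5, Ocln, Ctnnb1 and Gja1, and 19% of all windows held it. These letters not being in a window of 300 bases says nothing about binding of the receptor elsewhere. No window was read for Cdh1 or Cdh2, the genes with the highest and lowest differences.

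**Figure D1:**
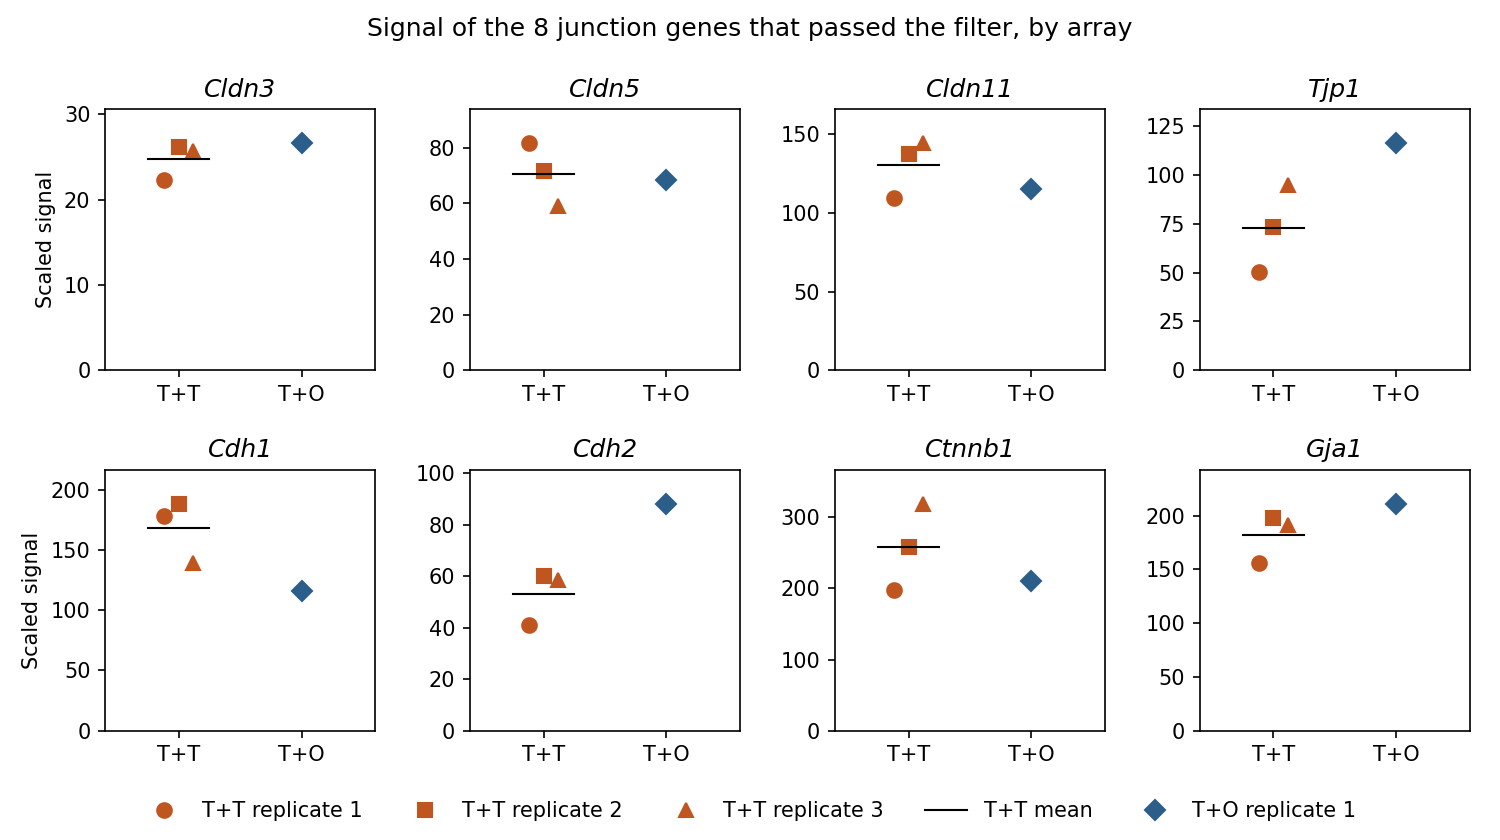
Scaled signal of each of the 8 tested genes (vertical axis from 0, array signal units) on the 3 T+T arrays (orange symbols, with their mean as a line) and on the T+O array (blue diamond). Cdh1 is above T+O on all 3 T+T arrays (139 to 188 against 116), and Tjp1 and Cdh2 are below it on all 3.

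Among the strand proteins, the 3 claudins had small log2 differences from the T+O array, each with a wide interval on both sides of 0. Cldn3, which seals the junction against small molecules, had scaled signals of 22.3, 26.1 and 25.7 on T+T replicates 1, 2 and 3, against 26.6 on the T+O array. All 3 T+T values lay below T+O, but replicates 2 and 3 by less than 1 signal unit. The log2 difference was -0.08 (SE 0.36, 95% interval -0.91 to 0.75; limma, adjusted p = 0.98), and it was -0.03 without T+T replicate 1 and -0.11 without replicate 2. A second Cldn3 probe set read 6.21, 3.85 and 4.99 in T+T, against 4.76 in T+O, below the filter and on both sides of T+O.

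Cldn11, the claudin without which Sertoli cells form no tight junction strands in mice, had 109.6, 138 and 144 on the T+T arrays, against 115 on the T+O array. Replicate 1, the array with the stated 4 hours of testosterone, was just below T+O, and the other two were above it. The log2 difference was 0.15 (SE 0.23, 95% interval -0.38 to 0.69; limma, adjusted p = 0.93). It was 0.27 without T+T replicate 1 and 0.08 without replicate 3. Its second probe set, below the filter, read 17.4, 5.04 and 17.7 in T+T against 10.7 in T+O.

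Cldn5, best known as the claudin of endothelial tight junctions, had 81.5, 71.5 and 58.98 on the T+T arrays and 68.3 on the T+O array. The T+O value lay inside the T+T range. The log2 difference was 0.03 (SE 0.26, 95% interval -0.56 to 0.63; limma, adjusted p = 0.99). Of 14 endothelial marker genes 4 were bright enough to be tested, and their summed signal was 248 to 344 on the T+T arrays against 227 on the T+O array. Of the defining endothelial genes, Pecam1 had 61.8, 14.99 and 48.9 in T+T against 45.4 in T+O, and Cdh5 was below the filter. The other 3 tested genes were higher on every T+T array, as were 29.5% of all tested probe sets, and none passed. Their log2 differences were 0.55 for Cd34, 0.42 for Eng and 0.35 for Vwf. The part of endothelial cells in the Cldn5 signal was not tested.

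Ocln encodes occludin, the first strand protein described in tight junctions. Its only probe set had 13.3, 14.9 and 12.5 on the T+T arrays, against 2.56 on the T+O array. The groups did not overlap, with a log2 difference of 0.91 after the offset of 10, and the T+O array alone was low. All 4 values were below the level of 22.7 that was required for a test, and no detection calls were at hand, so this difference carries no p and its fold depends on the offset. Among all tested probe sets 1.82% were at least 1.5-fold higher on every T+T array, and none of the 8 tested genes was among them. The groups did not overlap for 53.3% of the tested probe sets. Neither share covers probe sets as dim as that of Ocln. At least 1.5-fold to 1 side on every T+T array were 301 probe sets with the filter and 523 with none.

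Tjp1 encodes ZO-1, the scaffold below the strands, and its promoter window is the one printed with 2 GC boxes. It had 50.4, 73.5 and 94.97 on T+T replicates 1, 2 and 3, against 116 on the T+O array. Every T+T array lay below T+O, replicate 1 furthest and replicate 3 least. The log2 difference was -0.64 (SE 0.32, 95% interval -1.39 to 0.10; limma, adjusted p = 0.71). The T+T arrays were themselves spread by an SD of 0.40 on the log2 scale, against a median of 0.20 over the tested probe sets. Without T+T replicate 1 the difference was -0.43. The second Tjp1 probe set had 2.30, 6.10 and 0.857 in T+T against 4.02 in T+O, under the filter level and on both sides of T+O.

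The 2 classical cadherins lay on opposite sides of the T+O array. Cdh2, N-cadherin, the main cadherin of Sertoli cell junctions, had 41.1, 59.97 and 58.7 on the T+T arrays and 88.3 on the T+O array. All T+T values were below T+O. The log2 difference was -0.65 (SE 0.28, 95% interval -1.30 to 0.01; limma, adjusted p = 0.65). Of the 7453 tested probe sets, 8.67% differed at least this far in either direction.

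Cdh1, E-cadherin, is the cadherin of most epithelia and in the mouse testis is known from undifferentiated spermatogonia. It had 178, 188 and 139 on the T+T arrays, against 116 on the T+O array. The T+T arrays were all higher, with replicate 3 nearest to T+O. The log2 difference was 0.50 (SE 0.23, 95% interval -0.04 to 1.03; limma, adjusted p = 0.68), and 15.6% of the tested probe sets differed at least this far.

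For the marker lists of duct epithelium and spermatogonia, the T+O sum lay inside the T+T range, and single markers lay on both sides. The spermatogonia list is not limited to the undifferentiated spermatogonia from which Cdh1 is known. For the epithelium of ducts, 3 of 12 marker genes were bright enough, and their sum was 125, 79.2 and 72.1 on the T+T arrays against 102 on the T+O array. Of its defining genes, Krt8 had 50.95, 12.3 and 12.2 in T+T against 28.4 in T+O, and Krt18 and Epcam were below the filter. For spermatogonia, 6 of 14 genes summed to 2384, 2322 and 2103 in T+T against 2354 in T+O. Of these 6, 2 (Kit and Uchl1) were higher on every T+T array, as were 29.5% of all tested probe sets. Another 2 (Dazl and Stra8) were lower on every T+T array, as were 23.7%, and none of the 6 passed. The log2 differences were 0.16 for Kit, 0.28 for Uchl1, -0.96 for Dazl and -0.56 for Stra8. The part of these cells in the Cdh1 signal was not tested. The defining gene Zbtb16 had 22.3, 18.04 and 33.2 in T+T against 27.8 in T+O on its tested probe set. Kit, Uchl1, Dazl, Stra8 and Zbtb16 made up a minor part of each spermatogonia sum, with Uchl1 brightest at 359 on T+T replicate 1. Most of each sum came from the remaining gene of the 6, which is not named here, so the sum does not speak for the cell type. None of the 118 probe sets of marker genes was at 0 on any array.

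Ctnnb1, beta-catenin, links cadherins to the cytoskeleton and also carries Wnt signals. It had 198, 258 and 319 on the T+T arrays, against 210.3 on the T+O array. Replicate 1 lay below T+O and the other two above it. The log2 difference was 0.26 (SE 0.26, 95% interval -0.35 to 0.87; limma, adjusted p = 0.88). It was 0.43 without T+T replicate 1 and 0.10 without replicate 3.

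Gja1, the main gap junction protein between Sertoli cells, had 156, 198 and 191 on the T+T arrays and 211 on the T+O array. All T+T values were lower on this probe set, whose name marks probes shared within a gene family. The log2 difference was -0.21 (SE 0.21, 95% interval -0.71 to 0.28; limma, adjusted p = 0.88), with -0.11 left without T+T replicate 1 and -0.28 without replicate 2. The second Gja1 probe set, below the filter, was higher on all 3 T+T arrays, with 19.3, 23.9 and 16.2 against 12.3 in T+O. The direction for Gja1 is therefore uncertain.

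**Figure D2:**
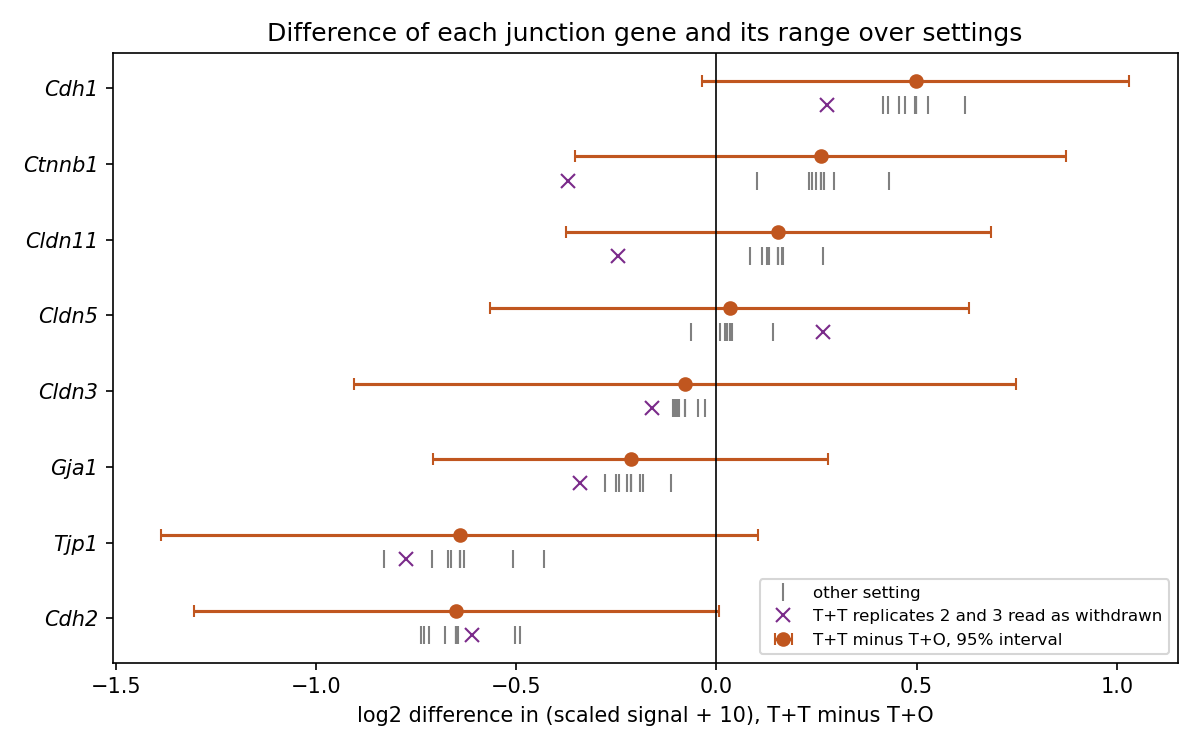
The log2 difference T+T minus T+O of each tested gene (horizontal axis, on scaled signal + 10), with its 95% interval from the fit, and below it the values under the other settings (grey ticks) and with T+T replicates 2 and 3 counted as withdrawn (crosses). All 8 intervals include 0, with Cdh2 lowest at -0.65 and Cdh1 highest at 0.50.

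In all, 4 of the 8 tested genes (Cldn3, Tjp1, Cdh2 and Gja1) were lower on every T+T array, as were 23.7% of all tested probe sets, and 1 (Cdh1) was higher on every T+T array, as were 29.5%. Together these 5 of 8 stand beside 53.3% of the tested probe sets whose groups did not overlap, so non-overlap is no mark of these genes. None lay 1.5-fold or more below T+O on each T+T array, where 2.21% of the tested probe sets did. Of 20 Sertoli cell markers 15 were bright enough, with a sum of 4576, 5092 and 5188 on the T+T arrays against 4653 on the T+O array, which lay inside the T+T range. Of these 15, 6 were higher and 2 lower on every T+T array, and none passed. Those that lay on 1 side throughout made up a minor part of each sum. Most of it came from the others of the 15, so the sum does not speak for the cell type. Kitl, the ligand that supports spermatogonia, was the only one of the 15 to lie 1.5-fold or more below T+O throughout, with 14.4, 12.6 and 17.4 in T+T against 49.9 in T+O, which is -1.28 on the log2 scale (limma, adjusted p = 0.45). The defining marker Wt1 had 58.2, 58.6 and 88.4 in T+T against 61.3 in T+O, and Sox9 has no singly named probe set here. The ratio of 3′ to 5′ signal of the control gene Gapdh, a sign of RNA integrity, was 0.809 to 0.886 on the T+T arrays against 1.20 on the T+O array, and that of Actb was 1.17 to 1.66 against 1.53. The part of this difference in the lower Tjp1 and Cdh2 signals was not tested.

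Ratios between 2 genes on the same array are free of the scaling between arrays. Relative to the ratio on the T+O array, the deposited signal of Cdh1 over that of Cdh2 was 3.31, 2.40 and 1.81 on T+T replicates 1, 2 and 3. The Cdh1 signal was thus higher relative to that of Cdh2 on each T+T array, most on replicate 1. This side follows from Cdh1 being higher and Cdh2 lower on each T+T array and adds no separate evidence. In whole testis the 2 signals need not come from the same cells. Cdh1 over Tjp1 was 3.55, 2.58 and 1.48. Ctnnb1 over Cdh2, its binding partner, was 2.02, 1.81 and 2.28, and Cldn11 over Tjp1 was 2.19, 1.88 and 1.53.

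Of the 28 pairs of tested genes, 20 were shifted to the same side on all 3 T+T arrays, as were 54.1% of all pairs of tested probe sets, and 5 by at least 1.5-fold, as were 12.6% of all pairs. Each of those 5 had Tjp1 or Cdh2 as the gene that was relatively low. Tjp1 and Cdh2 did not separate from each other, with ratios of 0.932, 0.931 and 1.23. All pairs share the T+O array and share genes, so these counts describe the arrays and carry no test.

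**Figure D3:**
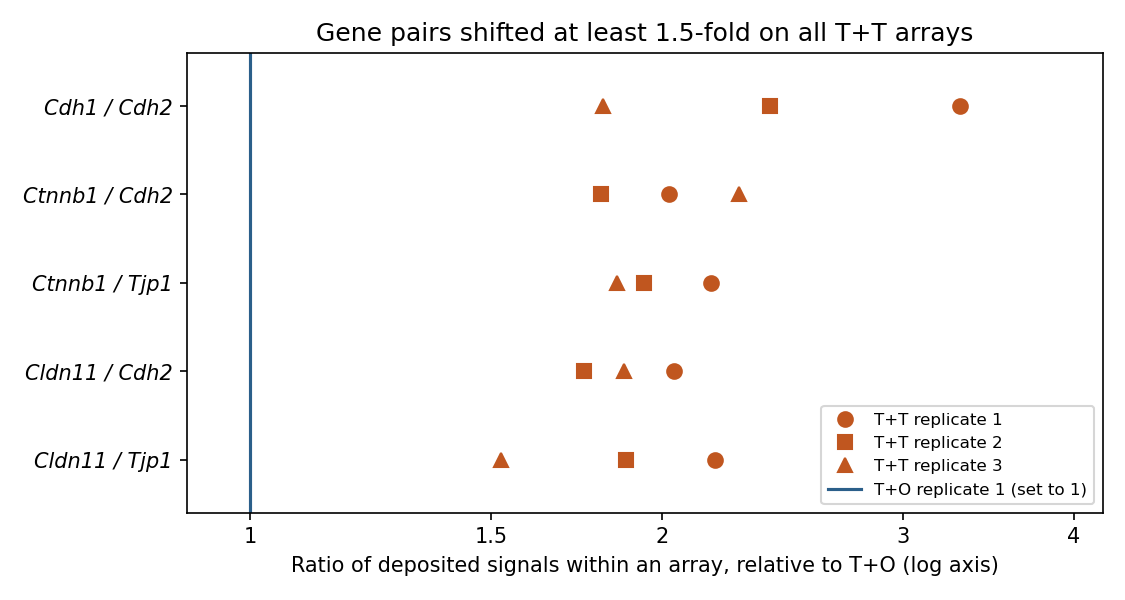
Ratios of deposited signals between 2 genes on the same array, divided by the ratio on the T+O array (log axis), for the 5 pairs at least 1.5-fold from 1 on all T+T arrays. Cdh1 over Cdh2 reaches 3.31 on T+T replicate 1 and 1.81 on replicate 3.

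T+T replicate 1 and T+O are the arrays whose titles and descriptions match. Between these 2 arrays, with no replicate check, Tjp1 differed by -1.06 and Cdh2 by -0.94 on the log2 scale. These 2 of the 8 genes lay 1.5-fold or more from T+O, both below it, and 17.8% of the tested probe sets lay that far from T+O in either direction. Cdh1, at 0.58, came next. Gja1 differed by -0.42, Cldn5 by 0.23, Cldn3 by -0.18, Ctnnb1 by -0.08 and Cldn11 by -0.07. The median of the 8 genes was -0.13.

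If the descriptions are followed instead and T+T replicates 2 and 3 count as withdrawn, T+T replicate 1 stands against the other 3 arrays. Tjp1 differed by -0.78 (SE 0.29) and Cdh2 by -0.61 (SE 0.31; limma, adjusted p = 0.92 for each). Cdh1 differed by 0.28, since T+T replicate 2 was as high as replicate 1. Ctnnb1 changed side to -0.37 and Cldn11 to -0.25. The median of the 8 genes was -0.29, against 0.014 over all tested probe sets. Here 1 array stands alone on 1 side, and the difference between these medians was not tested. No tested gene passed under this reading.

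The other genes of these junctions were taken from 5 lists holding 135 genes, of which 89 had a singly named probe set and 56 were bright enough to be tested. None passed in either direction (limma), 1 was higher and 1 lower at an unadjusted p under 0.05, where 7.80% of all tested probe sets had such a p, and the median log2 difference was 0.02. Of 12 tight junction and polarity genes, Llgl2, a polarity protein of the lateral membrane, had 80.7, 91.7 and 92.8 on the T+T arrays against 19.8 on the T+O array, which is 1.72 on the log2 scale (SE 0.24; limma, adjusted p = 0.11). It was the only one of the 56 at least 1.5-fold higher on every T+T array, where 1.82% of all tested probe sets were. Without T+T replicate 1, the only T+T array with stated renewed testosterone, it passed at 1.78 (limma, adjusted p = 0.0048), in a fit in which 63 probe sets passed. With T+T replicates 2 and 3 counted as withdrawn it differed by 0.42 (limma, adjusted p = 0.97). Lin7c, a scaffold of the Crumbs and cadherin complexes, was the only one at least 1.5-fold lower on every T+T array, where 2.21% of all tested probe sets were, with 30.4, 24.7 and 46.98 in T+T against 95.03 in T+O, which is -1.29 on the log2 scale (SE 0.35; limma, adjusted p = 0.34). The kinase Prkcz was at 0.40 and the scaffold Dlg1 at -0.37. The Prkcz probe set has a name suffix treated here as a sign of possible binding to other transcripts.

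Of 26 genes of the adherens junction and the ectoplasmic specialization, the actin-rich junction of Sertoli cells, 14 lay above 0 and 12 below. The kinase Csk, which holds Src in check, had 91.2, 64.1 and 73.8 on the T+T arrays against 47.9 on the T+O array, a log2 difference of 0.56. Itgb1, the beta-1 integrin, had 239, 287 and 310.01 against 384, a difference of -0.46, on a probe set whose name marks a shared family. Fscn1, an actin bundler, was at 0.33 and the kinase Fyn at -0.33. The 2 connexins tested beside Gja1 were Gja5 at 0.19 and Gjb5 at 0.10. Of the 4 desmosome genes, Pkp1 was at 0.66, Pkp2 at 0.42, Pkp4 at -0.27 and the desmosomal cadherin Dsg2 at -0.70.

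Among 12 genes that turn over beta-catenin or act with it, Tcf7l1, a transcription factor that binds it, had 69.2, 89.96 and 54.1 in T+T against 42.1 in T+O, which is 0.62 on the log2 scale (limma, adjusted p = 0.70). Axin2, a target and inhibitor of Wnt signalling, was split, with 44.2, 29.6 and 14.9 in T+T against 16.6 in T+O. Axin1 was at -0.25 and the chromatin remodeller Chd8 at -0.31.

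**Figure D4:**
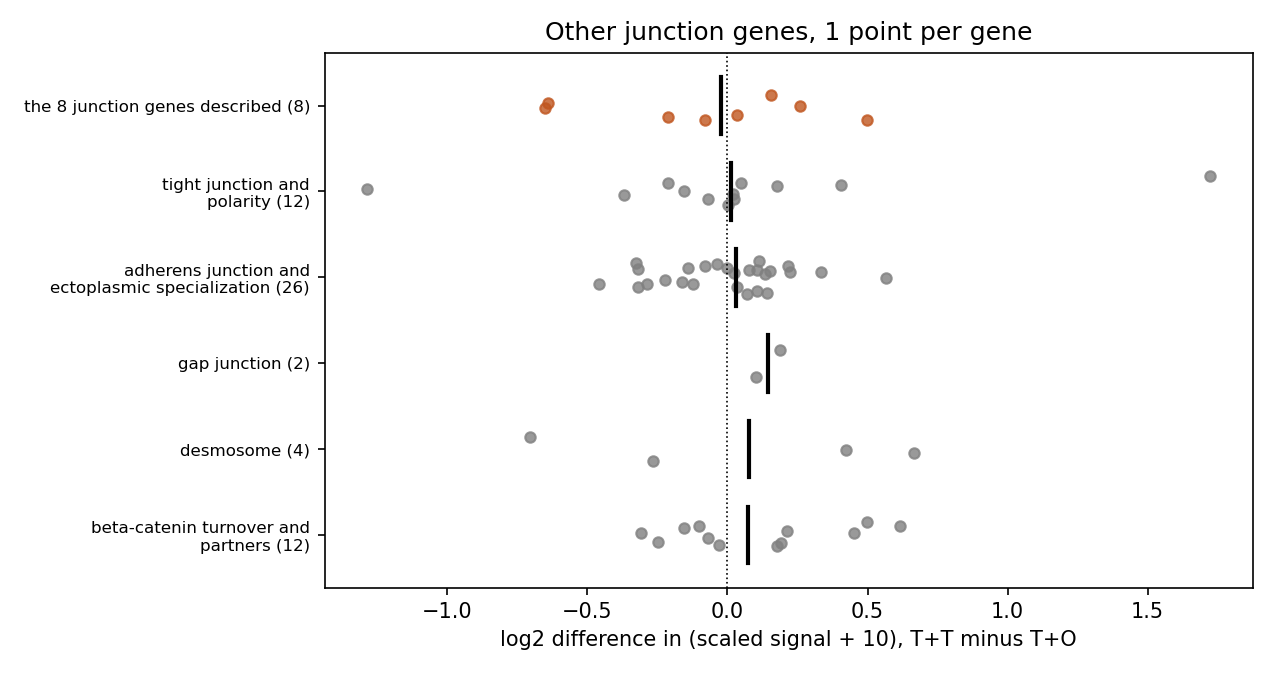
The log2 difference T+T minus T+O (horizontal axis) for the 8 tested genes and for the other junction genes by list, 1 point per gene with a bar at each median. The number of tested genes stands in brackets, and Llgl2 at 1.72 and Lin7c at -1.29 are the outermost points.

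The genes nearest to a member in pattern over the 4 arrays were found by the root mean square difference between centred log2 values, for the 3 tested members with the widest range. Etf1 and Uimc1 were nearest to Tjp1, at 0.022 and 0.030. Usp9x and Tmem131 were nearest to Cdh2, at 0.039 and 0.042. Siah1a and Atf3 were nearest to Ctnnb1, at 0.026 and 0.028. Of 5669 other genes, 61, 40 and 77 lay within 0.1 of Tjp1, Cdh2 and Ctnnb1, so 4 arrays single out no partner.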

How the data were processed

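Total RNA of testis was measured on 4 one-colour arrays, 1 per sample. The authors deposited signal intensity on a linear scale, 1 value per probe set and array, and the software and steps behind it are not given in the sources used here. The deposited trimmed means (2% off each end) ran from 72.9 to 124, so each array was scaled to their mean, by factors of 0.779 to 1.33, after 66 control probe sets were left out. Fold changes are on the log2(scaled signal + 10) scale and understate those of dim probe sets. Probe sets above the 40th percentile of the mean over the 4 arrays (7453 of 12422) were tested with limma 3.58.1 in R 4.3.3 (lmFit and trended eBayes, two-sided). The p-values were adjusted over all 7453 by Benjamini-Hochberg, at a threshold of 0.05. The fit takes the spread of the T+T arrays for that of the single T+O array, with 2 residual and 5.74 prior degrees of freedom, and the number of arrays limits the precision. The procedure was tested on simulated data. No 2 arrays were near identical, with at most 99 of 12422 deposited values equal.

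Groups and the numbers 1 and 2 of T+T were read from the titles, and the unnumbered T+T array was called replicate 3. Gene names came from the platform annotation, with symbols brought up to date from RefSeq gene IDs (GRCm38.p6), which held 10817 of 10833 singly named probe sets. A gene outside the 9 was represented by its brightest tested probe set. Named were all probe sets of the 9 genes, the 2 highest and 2 lowest genes of each junction list, fixed defining markers, and the nearest patterns. Cd34, Eng, Vwf, Kit, Uchl1, Dazl, Stra8, Kitl, Sycp1 and Crem were named after their values were seen. The members and lists were chosen with earlier results of these data known, and the motifs after the promoter windows had been seen. Other scalings, offsets and filters, no trend, leaving out each T+T array and the other reading of the labels were tried.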

Additional observations from a re-analysis of the deposited data

How the results depend on the processing

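No tested member passed under any setting run, and the design has no pairs. No paired analysis was possible because only 1 array stands in T+O. Of 87 values of the 8 tested genes under another setting, 84 kept their direction. The other 3 were Cldn5 at -0.063 without T+T replicate 1 (-0.063 to 0.14 with 1 T+T array left out), and Cldn11 at -0.25 and Ctnnb1 at -0.37 under the reading of the labels that counts T+T replicates 2 and 3 as withdrawn. Over the settings Cdh2 ranged from -0.74 to -0.49 (lowest limma adjusted p = 0.33), Tjp1 from -0.83 to -0.43 (lowest 0.28) and Cdh1 from 0.28 to 0.62 (lowest 0.24). The median of the 8 genes was -0.045 to -0.0082 with 1 T+T array left out and -0.29 under the other reading of the labels. The number of members at least 1.5-fold apart, 0 in the main analysis, was 1 with no filter (Ocln) and 0 to 1 with 1 T+T array left out (Tjp1, without replicate 3). Of the other junction genes 0 to 1 passed with 1 T+T array left out (Llgl2 without T+T replicate 1, at 1.78, limma adjusted p = 0.0048). Over all tested probe sets, the 2 past the threshold became 6 after median scaling, 6 with the offset at the 50th percentile, 1 to 63 with 1 T+T array left out, and 0 with quantile scaling, no filter, no trend or the other reading. The 301 with a gap of 1.5-fold or more were 155 with that higher offset, 523 with no filter, 167 with the filter at the 60th percentile, and 416 to 653 with 1 T+T array left out. The cause of these changes was not tested, other than that no filter means more probe sets and a left-out array fewer that must agree. Without detection calls, a signal near the filter level, such as that of Cldn3, cannot be told from background.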

Other observations

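Markers of other testis cells, given here as values, did not pass either (limma, lowest adjusted p = 0.11). That was Sycp1, of the spermatocyte and spermatid list, with 13.5, 38.5 and 36.2 on the T+T arrays against 389.9 on the T+O array, a log2 difference of -3.42, opposite to the sum of its list. Of the 14 tested genes of that list, 7 were higher and 2 (Sycp1 and Crem) lower on every T+T array. Over all tested probe sets 29.5% were higher and 23.7% lower on every T+T array. The 14 tested of 15 spermatocyte and spermatid genes summed to 37922, 40576 and 32148 on the T+T arrays against 31907 on the T+O array. The 6 tested of 10 Leydig cell genes summed to 726, 620 and 721 in T+T against 677 in T+O. The 8 peritubular myoid genes summed to 1811, 1852 and 1504 in T+T against 1474 in T+O, and the 6 tested of 10 macrophage genes to 328, 318 and 396 against 263. The sums of the macrophage, myoid and endothelial lists were thus higher on all 3 T+T arrays. That of the spermatocyte and spermatid list was higher on replicates 1 and 2 and nearly equal to T+O on replicate 3 (32148 against 31907). The sums of the Leydig, Sertoli, spermatogonia and duct lists had the T+O array inside the T+T range.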
